A study of Mus musculus with 11 samples.

Results

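Ependymal motile cilia genes serve the beating cilia of the ependyma, the cell layer that lines the ventricles of the brain. They were given by 10 names, namely Foxj1, Ccdc153, Cfap126, Tmem212, Rsph1, Dynlrb2, Ak7, Spag6, Tekt1 and Rarres2. Their probes were those on the array whose RefSeq accession belongs to one of these names as its present or former symbol. This held for 15 of 55681 distinct probes. The 15 probes stand for 11 genes, because the name Spag6 covers both the present Spag6 and its paralog Spag6l, which formerly bore that name. All 11 genes passed the filter on dim probes and are among the 26082 features tested, where a feature is a gene, or an accession that matched no symbol. Between 1 and 2 probes stood for each gene, and the brighter one was used.

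RNA was taken from the cortex of the right hemisphere of 22 mice on a C57/Bl6J background, aged 5 to 7 months, and hybridised to 11 Agilent 2-colour arrays with a different mouse in each channel. TC mice (n = 6) were transgenic and cryolesioned, WTC mice (n = 5) were cryolesioned wild types, T mice (n = 5) were intact transgenics and WT mice (n = 6) were intact wild types. The transgenics carried GFA2-tTa and TetO-VP16-CREB, in which the astrocyte promoter GFA2 drives a transactivator that switches on VP16-CREB, a version of the transcription factor CREB that is active without a stimulus. For the cryolesion dry ice was held to the brain surface for 30 s, and the lesioned mice were killed 3 days later. The labels do not say how the cortex was freed from the ventricular wall beneath it. In such bulk RNA, fewer cells of a type and less RNA per cell cannot be told apart.

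Motile cilia beat by sliding their microtubule doublets against each other with dynein motors, while radial spokes and a central pair of microtubules coordinate the stroke. Cells that bear many such cilia switch on the genes for these parts together, under the transcription factors FOXJ1 and RFX. In the brain such cells are found in the ependyma, where the beat moves cerebrospinal fluid, and the choroid plexus, which secretes that fluid, is attached to the ventricular wall and has ciliated epithelium of its own. Among the genes measured here, Foxj1 encodes the forkhead regulator itself. Rsph1 encodes a protein of the radial spoke head, Spag6 and Spag6l encode proteins of the central pair apparatus, Tekt1 a tektin of the doublet microtubules and Cfap126, also called Flattop, a protein of the axoneme and basal body. Dynlrb2 is a dynein light chain of the roadblock family and Ak7 an adenylate kinase of motile cilia. Ccdc153 and Tmem212, of less defined function, are used as marker genes of ependymal cells. Rarres2 is the exception in kind, since it encodes chemerin, a secreted chemoattractant for immune cells that is no part of the cilium.

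The promoters of these genes were read, as planned, for motifs of RFX and forkhead factors and of CREB. RefSeq windows of 300 bases (build GRCm38.p6, 250 bases before to 50 after an annotated start) were available for 8 of the 11 genes, in 11 windows, with 3 for Cfap126 and 2 for Tekt1. Such a start need not be the outermost one of its gene. The 5 windows in the lines that follow hold the RFX half-site GTTGCC, read on both strands, and are given 5′ to 3′ on the gene's strand with motif matches in capitals. They lie at chr9:44240427-44240726 (+) for Ccdc153, chr8:116504765-116505064 (+) for Dynlrb2, chr11:72361833-72362132 (-) for Tekt1, chr16:16829314-16829613 (-) for Spag6l and chr2:18698772-18699071 (+) for Spag6.
Ccdc153: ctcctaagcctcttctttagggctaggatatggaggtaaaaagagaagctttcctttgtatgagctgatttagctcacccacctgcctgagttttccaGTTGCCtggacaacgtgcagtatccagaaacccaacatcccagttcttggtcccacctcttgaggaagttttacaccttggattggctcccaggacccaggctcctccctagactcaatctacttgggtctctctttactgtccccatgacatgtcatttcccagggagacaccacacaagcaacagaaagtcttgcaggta
Dynlrb2: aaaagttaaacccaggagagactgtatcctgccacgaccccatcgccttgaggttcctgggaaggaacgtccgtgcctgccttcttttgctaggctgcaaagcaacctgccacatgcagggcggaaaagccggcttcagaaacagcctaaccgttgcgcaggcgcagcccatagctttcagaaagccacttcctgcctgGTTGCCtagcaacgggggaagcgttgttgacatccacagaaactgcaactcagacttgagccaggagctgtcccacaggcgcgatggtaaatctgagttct
Tekt1: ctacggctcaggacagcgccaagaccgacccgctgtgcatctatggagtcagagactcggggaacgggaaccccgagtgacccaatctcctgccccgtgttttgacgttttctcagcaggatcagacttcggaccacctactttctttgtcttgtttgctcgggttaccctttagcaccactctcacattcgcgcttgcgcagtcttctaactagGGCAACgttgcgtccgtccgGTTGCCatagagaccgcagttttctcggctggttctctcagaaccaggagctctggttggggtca
Spag6l: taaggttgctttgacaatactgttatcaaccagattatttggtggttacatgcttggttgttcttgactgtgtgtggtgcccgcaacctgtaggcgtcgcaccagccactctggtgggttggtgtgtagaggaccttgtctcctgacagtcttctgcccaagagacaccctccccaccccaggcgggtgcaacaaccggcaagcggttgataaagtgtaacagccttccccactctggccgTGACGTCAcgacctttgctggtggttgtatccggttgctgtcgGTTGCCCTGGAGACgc
Spag6: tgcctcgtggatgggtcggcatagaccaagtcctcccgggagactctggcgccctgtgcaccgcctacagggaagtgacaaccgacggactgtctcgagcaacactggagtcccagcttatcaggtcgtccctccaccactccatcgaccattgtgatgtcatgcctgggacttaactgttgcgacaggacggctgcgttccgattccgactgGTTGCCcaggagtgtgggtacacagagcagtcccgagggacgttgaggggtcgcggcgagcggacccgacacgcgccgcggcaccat
The first base of the half-site lies 152 bases before the start in Ccdc153, 51 in Dynlrb2, 37 in Spag6, and 35 and 15 in Tekt1, where the copies face in opposite directions. In Spag6l it lies 34 bases after the start, inside a match to the X-box pattern searched here, GTNNCC followed within 3 bases by GGNNAC. The pattern requires GG at the head of its second part, so the bases tagcaac after the Dynlrb2 half-site do not match. Spag6l also holds the full cyclic AMP response element TGACGTCA, the motif that CREB binds, 9 bases before its start. The half-site was found in 5 of the 8 genes, against 14.1% of all 27025 genes with windows and 26 of 57 genes of other motile cilia parts. This X-box pattern was found in 2 of the 8 genes, Cfap126 and Spag6l, against 4.38% of all genes, and looser forms were not counted. The forkhead motif TGTTTAC was found in 1, Ak7, against 4.05%, and TGACGTCA in 1, against 2.03%. None of the 4 motifs was found in the window of Tmem212. The windows with matches in Spag6, Ak7, Tekt1 and Cfap126 lie wholly inside their genes. Starts counted from there are not the outermost ones. A match is a string of letters and no shown binding, and its relation to the level of a gene was not tested.

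Lesion labels were checked against Gfap, the intermediate filament of reactive astrocytes. Its log2 level was 13.96 or higher in all 11 lesioned mice and 12.74 or lower in all 11 intact ones. On 3 arrays, I, J and K, title and channel label disagree on the Cy3 mouse, and its group was taken from the title. Read by its title, each of those 3 mice lay on its group's side in Gfap, at 13.96 and 14.62 in the TC mice of arrays I and K and 12.74 in the T mouse of array J. Genotype labels were not checked against any gene. All WT mice were on slide 1, while the other groups were split over 2 slides. The 22 channels had 56.6% to 65.3% of their spots well above background, and no spot was saturated. With 11 arrays in all, their number sets how precise these values are.

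Other genes of the ependyma and genes of nearby tissues were read in every mouse as the mean over a list. Other ependymal genes (8 measured, among them Mia, Cd24a and Hdc) had a mean log2 level of 9.08 to 11.19 in TC mice, 10.67 to 11.37 in WTC mice, 9.71 to 10.31 in T mice and 9.26 to 10.76 in WT mice. Genes of the choroid plexus (19 measured, such as the transthyretin gene Ttr, Kl and Folr1) spread far more, with means of 7.46 to 11.69 in TC mice, 8.46 to 11.86 in WTC mice, 7.88 to 9.18 in T mice and 7.63 to 11.66 in WT mice. In 7 mice the choroid plexus mean was above 10, namely the TC mice of arrays J and L, the WTC mice of arrays B, K, L and M and the WT mouse of array D. Striatal genes (15 measured, such as Drd1 and Penk), which mark the tissue beneath the cortex, ranged from 9.15 to 13.07 over the 22 mice. All of these are neighbours of the cortex, and their part in the results was not tested.

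The first comparison asked how the cryolesion altered these genes in wild-type cortex. Of the 11 genes, 10 had higher fitted levels in WTC than in WT mice, with a median log2 ratio of 1.56, which is 2.94-fold, against a median of 0.00 over all features. In the planned limma fit 0 of the 11 passed an adjusted p of 0.05 (Benjamini-Hochberg over all features), as did 0.023% of all features. At an unadjusted p under 0.05 there were 7, against 19.6% of all features. In a separate-channel limma fit, which also uses the comparison between arrays, 7 of the 11 rose (Foxj1, Cfap126, Rsph1, Dynlrb2, Ak7, Tekt1 and Rarres2), where 14.2% of all features rose. The WT mice were all on slide 1. The arrays of that slide alone hold 2 of the 5 WTC mice and leave 2 residual degrees of freedom. In them 8 genes rose, against 5.52% of all features. For 3 genes, Foxj1, Cfap126 and Rarres2, every WTC mouse lay above every WT mouse, as held for 9.07% of all features.

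Foxj1 had log2 levels of 10.75, 10.93, 11.09, 10.49 and 11.12 in the WTC mice of arrays A, B, K, L and M. In WT mice its lowest, median and highest level was 8.95, 9.17 and 10.21. The groups did not overlap, with 10.88 ± 0.26 (SD, n = 5) in WTC mice and 9.36 ± 0.48 (SD, n = 6) in WT mice. In WTC mice the SD of the median feature was 0.24. Its fitted log2 ratio was 1.56 ± 0.40 (SE, adjusted p = 0.11), and in the separate-channel limma fit it rose by 1.51 ± 0.29 (adjusted p = 0.0013).

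Among the parts of the axoneme, Cfap126 had 11.82, 12.42, 12.35, 11.83 and 11.89 in the WTC mice, in the same order of arrays, against 9.77, 10.11 and 11.66 as lowest, median and highest level in WT mice. No WTC mouse reached down to the WT group, although the highest WT mouse came close to it. The fitted log2 ratio of Cfap126 was 1.86 ± 0.53 (SE, limma adjusted p = 0.13). Rsph1, of the radial spoke head, had 10.42, 11.03, 11.10, 10.44 and 10.19 in WTC mice, and in WT mice 8.63, 9.27 and 10.44 as lowest, median and highest level. Here the highest WT mouse overlapped the WTC group. The fit gave Rsph1 a log2 ratio of 1.57 ± 0.41 (SE, limma adjusted p = 0.12). The dynein light chain gene Dynlrb2 stood at 11.54, 12.05, 12.16, 11.37 and 10.95 in WTC mice, against 9.17, 9.98 and 11.44 in WT mice (lowest, median, highest), with a log2 ratio of 1.82 ± 0.61 (SE, limma adjusted p = 0.16). For Tekt1 the WTC mice had 10.15, 10.96, 10.94, 9.84 and 10.07 and the WT mice 8.52, 8.81 and 10.49, and the log2 ratio was 1.54 ± 0.50 (SE, limma adjusted p = 0.15). Ak7 lay near background, above it in 5 of 5 WTC mice and 4 of 6 WT mice. Its log2 ratio was 0.88 ± 0.35 (SE, limma adjusted p = 0.21).

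The central pair paralogs parted. Spag6l had 10.15, 10.27, 9.97, 9.55 and 8.80 in WTC mice, against 8.64, 9.21 and 9.85 in WT mice, and a log2 ratio of 0.79 ± 0.38 (SE, limma adjusted p = 0.29). Spag6 had 7.70, 7.59, 6.55, 7.15 and 6.52 in WTC mice and 7.10, 7.92 and 8.05 in WT mice, with a log2 ratio of -0.38 ± 0.36 (SE, limma adjusted p = 0.60). It was the sole gene of the 11 whose ratio was negative, and on slide 1 alone its ratio was 0.10. Whether probes of one paralog also bind RNA of the other was not tested.

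Ccdc153 and Tmem212, the ependymal markers, had large ratios and large errors. Ccdc153 had 11.74, 11.63, 12.33, 10.86 and 10.45 in WTC mice, against 9.39, 10.19 and 11.50 in WT mice, which gave a log2 ratio of 1.45 ± 0.92 (SE, limma adjusted p = 0.42). Tmem212 had 10.79, 10.25, 10.67, 9.51 and 8.62 in WTC mice, against 7.58, 8.51 and 9.85 in WT mice, and its log2 ratio was 1.86 ± 0.83 (SE, limma adjusted p = 0.26). Both groups overlapped for either gene. Rarres2, the secreted protein of the set, had the smallest p of the 11, with 12.58, 13.13, 13.33, 12.62 and 12.86 in WTC mice against 10.93, 11.32 and 12.12 in WT mice. Its log2 ratio was 1.66 ± 0.37, or 3.15-fold (SE, limma adjusted p = 0.097), and in the separate-channel limma fit it rose by 1.51 ± 0.25 (adjusted p = 0.00057). Without array I, which pairs a TC with a T mouse, Rarres2 and Rsph1 passed in limma, where 5.51% of all features did.

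**Figure D1:**
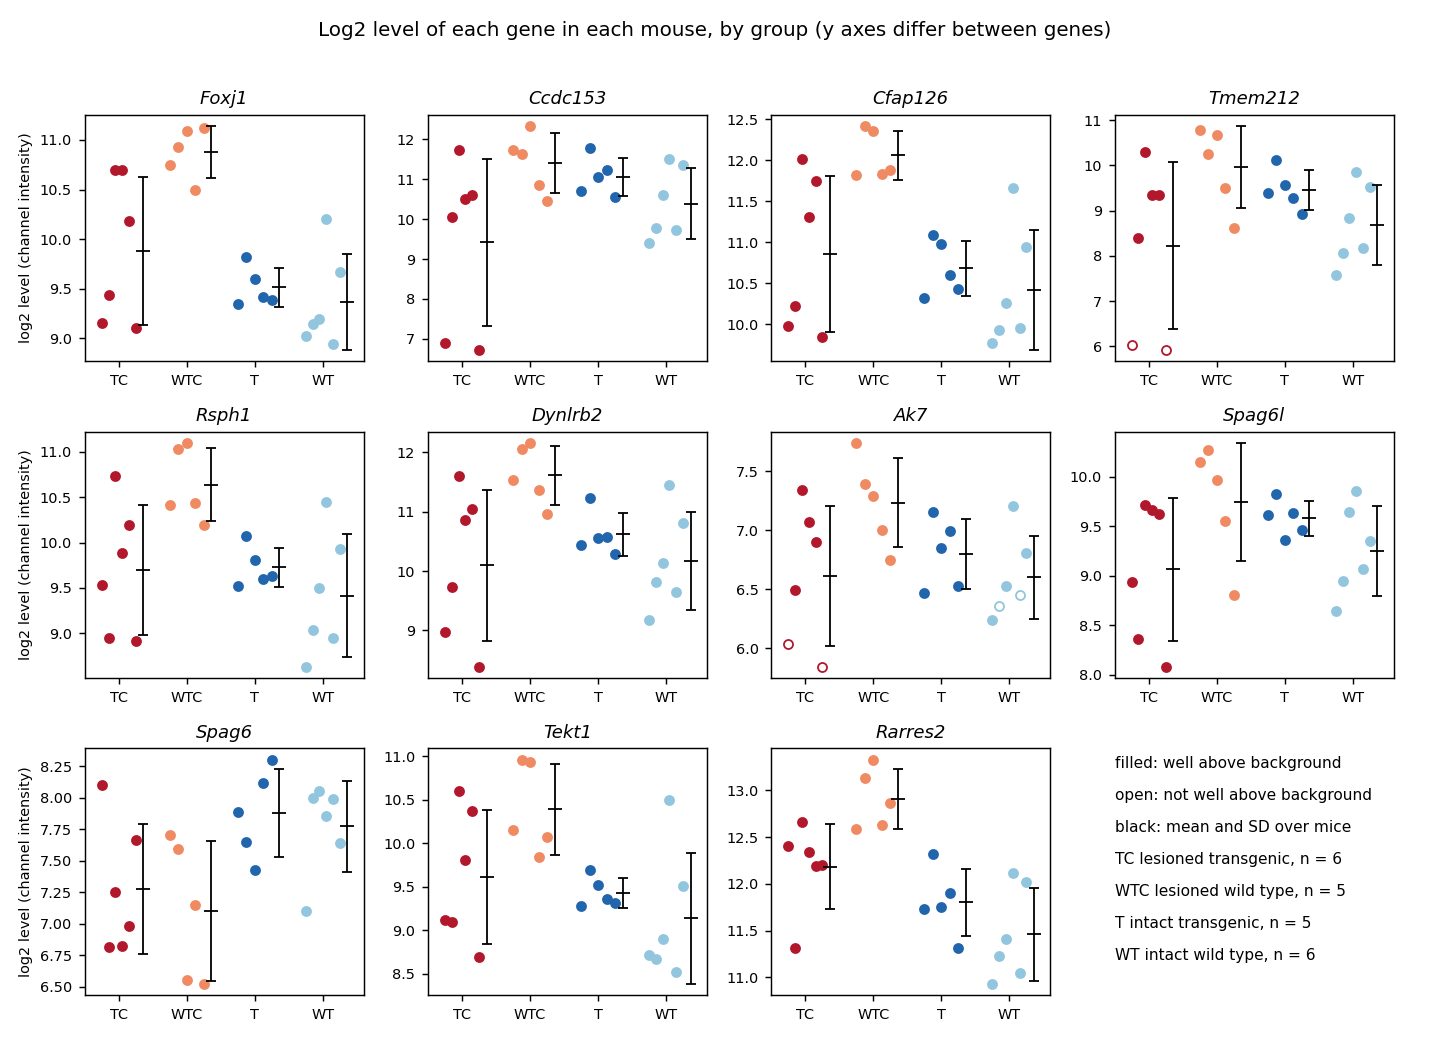
Log2 level (channel intensity after normalization, y axis, a separate scale for each gene) of the 11 ependymal motile cilia genes in each of 22 mice, by group on the x axis. Points are mice, open points were not well above background, and black marks give the mean and SD of a group. For Foxj1, Cfap126 and Rarres2 all 5 WTC mice lie above all 6 WT mice. The lowest TC mice in Ccdc153 (6.72 and 6.91) and in Tmem212 (5.92 and 6.04) lie far below every other mouse.

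Single arrays show the same comparison without any fit. On array A, WTC over WT, all 11 genes had positive log2 ratios with a median of 1.50, and on array B 10 of 11 did, with a median of 2.25. The lesioned mouse of array A had a choroid plexus mean of 8.46, against 8.02 in the WT mouse beside it. WT mice ranged from 7.63 to 11.66, with the mouse of array D at the top and that of array F next at 8.96. Of the 19 choroid plexus genes 14 were higher in the lesioned mouse, with a median log2 difference of 0.48 and a range of -1.65 to 2.27. Ttr was at 11.50, against 11.42 in the WT mouse, Kl at 9.63, against 7.95, and Folr1 at 8.90, against 7.99. Its other ependymal genes had a mean of 10.80, against 9.26 in that WT mouse. The WTC mouse of array B had a choroid plexus mean of 11.86 and a Ttr level of 18.51, against 8.11 and 13.63 in the WT mouse on its array. So 10 of the 11 genes had the higher level in the lesioned mouse of both arrays. The choroid plexus mean was also higher in the lesioned mouse of both, slightly on array A and far more on array B. Its part in these ratios was not tested.

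**Figure D2:**
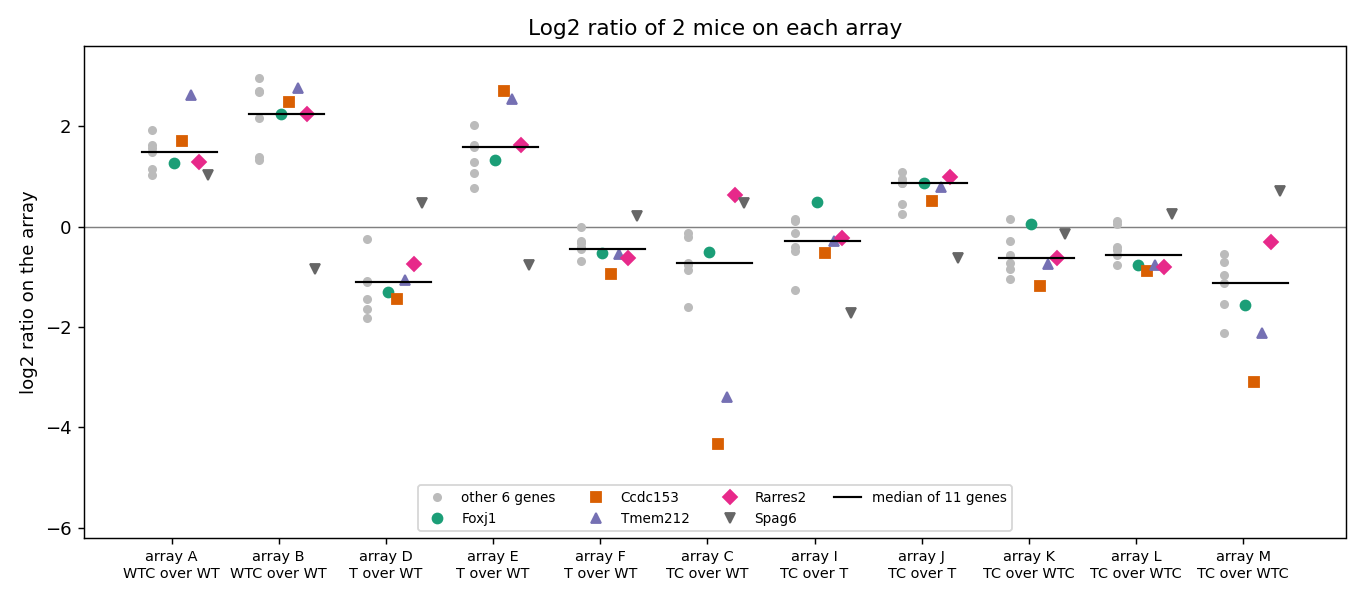
Log2 ratio (y axis) of the 2 mice on each of 11 arrays (x axis, with the pairing under the letter) for 11 genes. Coloured symbols are 5 named genes, grey points the other 6 and black lines the median of 11. Medians are 1.50 and 2.25 on the arrays of WTC over WT, and Ccdc153 is at -4.33 on array C, where the TC mouse was not well above background in Tmem212, while Rarres2 is at 0.64 there.

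In transgenic mice the same lesion was assessed by TC minus T. The fitted median log2 ratio of the 11 genes was 0.19, against 0.01 over all features, with 7 ratios positive and 4 negative. In this comparison 0 genes passed in the planned limma fit (0% of all features did), 0 reached an unadjusted p under 0.05 (11.9% of all features) and 0 passed in the separate-channel limma fit (7.41% of all features). No gene had every TC mouse above every T mouse, against 2.06% of all features, or every TC mouse below, against 2.86%. Without arrays I, J and K every TC mouse was below every T mouse in Ccdc153 and Tmem212, as held for 14.3% of all features. This leaves the TC mice of arrays C, L and M and the T mice of arrays D, E and F. Foxj1 had 9.10, 9.81 and 10.70 as lowest, median and highest level in TC mice, against 9.35, 9.82, 9.60, 9.42 and 9.38 in the T mice of arrays D, E, F, I and J. The T mice were close together while TC mice lay both above and below them, and the log2 ratio was 0.59 ± 0.40 (SE, limma adjusted p = 0.58). Rarres2 was at 11.32, 12.27 and 12.66 in TC mice, against 11.73, 12.31, 11.75, 11.90 and 11.32 in T mice, with a log2 ratio of 0.56 ± 0.36 (SE, limma adjusted p = 0.57). Ccdc153 had the lowest ratio, -0.74 ± 0.90 (SE, limma adjusted p = 0.80), from 6.72, 10.28 and 11.72 in TC mice and 10.70, 11.78, 11.05, 11.22 and 10.57 in T mice. Its ratio was 0.21 without arrays C and M.

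The question of the study, what activated CREB in astrocytes does to the injured cortex, was addressed by TC minus WTC. Of the 11 genes, 10 had lower fitted levels in TC than in WTC mice, with a median log2 ratio of -1.04, against -0.02 over all features. None passed in the planned limma fit (0 of 11, and 0% of all features) or in the separate-channel limma fit (0 of 11, and 0.139% of all features). At an unadjusted p under 0.05 there were 7, against 14.8% of all features. No gene had every TC mouse below every WTC mouse, as did 0.239% of all features. Without arrays I, J and K, whose labels disagree, 4 genes did, namely Foxj1, Cfap126, Rsph1 and Rarres2, against 3.32% of all features. This leaves the TC mice of arrays C, L and M and the WTC mice of arrays A, B, L and M. The TC mice of arrays J and K, left out here, were the highest of their group in Foxj1, at 10.70 each. TC minus WTC and WTC minus WT share the WTC mice, whose levels enter them with opposite sign.

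Dynlrb2 had the smallest p of the 11 here, with a log2 ratio of -1.72 ± 0.54 (SE, limma adjusted p = 0.22). Its levels were 8.39, 10.30 and 11.60 as lowest, median and highest in TC mice, against 10.95 to 12.16 in WTC mice, so that the upper end of the TC group overlapped the lower end of the WTC group, and the TC median lay below every WTC mouse. Foxj1 had a log2 ratio of -1.04 ± 0.36 (SE, limma adjusted p = 0.25), and Rsph1 one of -1.13 ± 0.37 (SE, limma adjusted p = 0.23). Cfap126 was at 9.85, 10.76 and 12.01 in TC mice, against 11.82 to 12.42 in WTC mice, and its log2 ratio was -1.32 ± 0.47 (SE, limma adjusted p = 0.26). Rarres2 had a smaller log2 ratio, -0.78 ± 0.33 (SE, limma adjusted p = 0.32), as did Tekt1, Ak7 and Spag6l, whose ratios lay between -0.87 and -0.67. For Spag6 the ratio was 0.10, and it was -0.37 without arrays C and M.

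The lowest ratios were those of Ccdc153, at -2.36 ± 0.81 (SE, limma adjusted p = 0.25), and of Tmem212, at -1.96 ± 0.73 (SE, limma adjusted p = 0.28). In both genes 2 TC mice lay far below the others. Ccdc153 had log2 levels of 6.91, 10.06, 11.72, 10.51, 10.61 and 6.72 in the TC mice of arrays C, I, J, K, L and M, and Tmem212 had 6.04, 8.40, 10.31, 9.34, 9.34 and 5.92 in these mice. In the TC mice of arrays C and M, Tmem212 and Ak7 were not well above background. Without arrays C and M, which also leaves out a WT and a WTC mouse, the log2 ratio of Ccdc153 was -1.24 and that of Tmem212 was -1.09, and the median of the 11 genes was -0.84. In the same 2 mice Rarres2 was at 12.40 and 12.20, among the other TC mice, Foxj1 was at 9.15 and 9.10, inside the WT range, and Spag6 was at 8.10 and 7.66, above the other 4 TC mice. The choroid plexus mean was 7.98 and 7.46 in them, the other ependymal mean 9.08 and 9.18 and the reactive astrocyte mean 12.06 and 12.56, against 10.26 to 12.82 over all TC mice. The TC mice of arrays I and K also had low choroid plexus means, 7.86 and 7.98, with Ccdc153 at 10.06 and 10.51.

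On the 3 arrays that pair TC with WTC mice, the median log2 ratio of the genes was -0.63 on array K, -0.57 on array L and -1.12 on array M, and 2, 3 and 1 of the 11 ratios were positive. Slide 2 alone, which holds these arrays, gave a median of -0.69. Slide 1 alone, where the TC mouse of array C stands for its whole group, gave -1.56. The WTC mice of arrays K, L and M had choroid plexus means of 10.78, 10.35 and 10.63, beside TC mice with 7.98, 11.23 and 7.46. On array L, where both mice had high choroid plexus means, Foxj1 had a log2 ratio of -0.76, Dynlrb2 of -0.77 and Ccdc153 of -0.88. The part of choroid plexus tissue in these ratios was not tested.

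**Figure D3:**
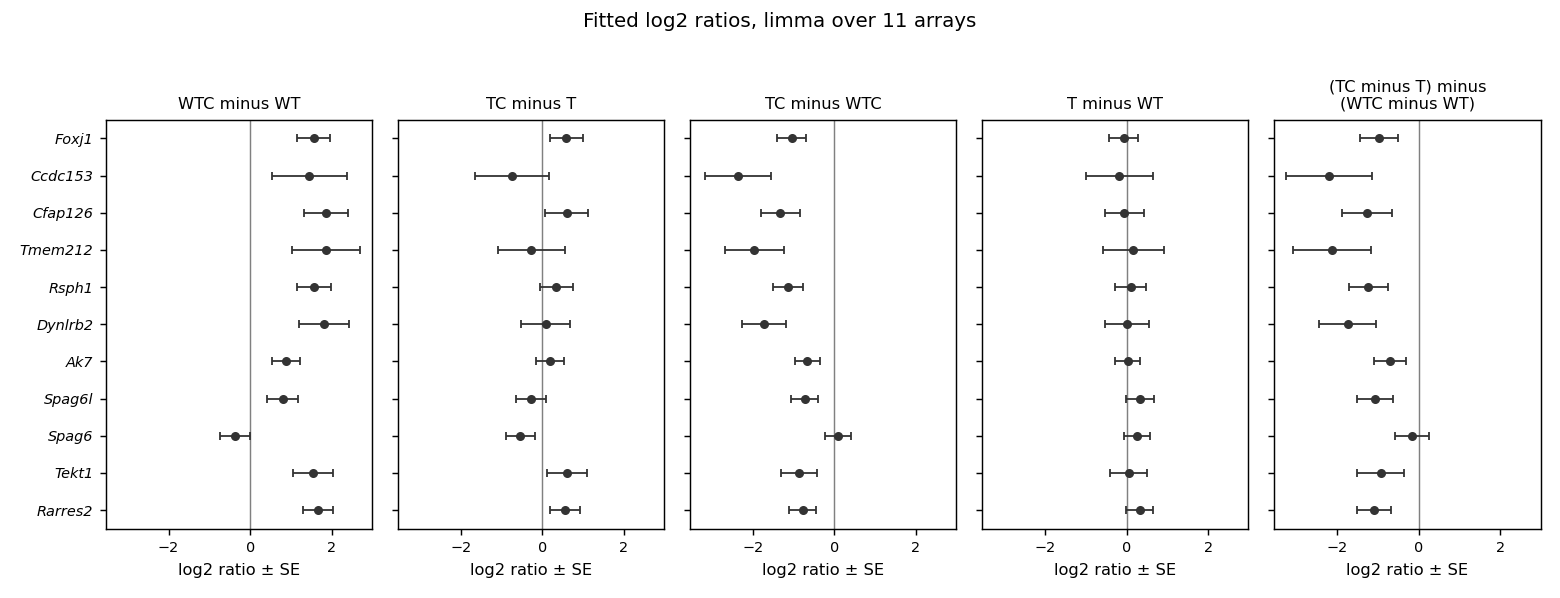
Fitted log2 ratio (x axis, point) with its SE (bar) for 11 genes (rows) in 4 comparisons and in the difference of both lesion effects, (TC minus T) minus (WTC minus WT). In WTC minus WT 10 of 11 ratios are above 0, in TC minus WTC 10 of 11 are below 0, and in T minus WT all lie between -0.17 and 0.34.

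The difference of both lesion effects, which is TC minus T less WTC minus WT, was negative for all 11 genes, with a median log2 difference of -1.10 against -0.02 over all features. In the planned limma fit 0 passed (0% of all features), with adjusted p between 0.81 and 0.93, and 4 reached an unadjusted p under 0.05, against 5.38% of all features. These 4 were Rarres2 at -1.10 ± 0.42, Rsph1 at -1.23 ± 0.47, Dynlrb2 at -1.73 ± 0.70 and Spag6l at -1.07 ± 0.43 (SE). Ccdc153 and Tmem212 had the largest differences in size, -2.19 ± 1.05 and -2.13 ± 0.95 (SE), and Spag6 the smallest, -0.16 ± 0.41 (SE). No difference between wild-type and transgenic mice in the response of these genes was thus detectable with these 11 arrays.

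Intact mice were compared by T minus WT. Here the median log2 ratio was 0.05, against 0.00 over all features, and ratios ran from -0.17 ± 0.82 (SE) for Ccdc153 to 0.34 ± 0.34 (SE) for Spag6l. In the planned limma fit 0 genes passed (0% of all features), all with adjusted p of 0.98 or more, and 0 reached an unadjusted p under 0.05, against 2.92% of all features. In the separate-channel limma fit 0 features passed. The groups overlapped for all 11 genes, where 0.596% of features did not overlap. Single arrays differed widely in this comparison. On array E, T over WT, 10 of 11 log2 ratios were positive with a median of 1.59, whereas on array D 1 of 11 was positive with a median of -1.10 and on array F 1 of 11 with a median of -0.45. Without array E the median of the fit was -0.50.

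These genes spread between mice of one group, also in the intact groups, where no difference was detected. Among WT mice the SD of the log2 level was 0.36 to 0.90 over the 11 genes, with a median of 0.68, against 0.14 for the median feature. In T mice the median SD was 0.34, against 0.13 for the median feature, in WTC mice 0.50 against 0.24 and in TC mice 0.74 against 0.24. Such spread was not particular to them. The mean of the choroid plexus list had an SD of 1.48 in WT and 1.90 in TC mice, that of the other ependymal genes 0.56 and 0.91, and that of the 11 genes 0.59 and 0.83. Within the WT group the highest mouse had 2.39 times the lowest mouse's Foxj1 level, 4.83 times its Tmem212 level and 4.82 times its Dynlrb2 level. Among TC mice the factor was 3.02 for Foxj1 and 32.0 for Ccdc153, and none is given for Tmem212, whose lowest TC mouse was not well above background. The same mice were at the ends for most genes. The WT mouse of array D was the highest of its group in 10 of 11 genes and that of array A the lowest in 9. The T mouse of array E was the highest in 10, the TC mouse of array J the highest in 9 and the TC mouse of array M the lowest in 9.

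Deviations of each mouse from its group mean were set against each other over the 22 mice, where the mice of an array share a hybridisation. For the 55 pairs of genes Pearson's r ran from -0.41 to 0.98 with a median of 0.79, and without Spag6 the 45 pairs ran from 0.36 to 0.98 with a median of 0.81. Without the TC mice of arrays C and M the median of those 45 pairs was 0.83, and in the 11 intact mice it was 0.91. Set against the mean of the other members, Dynlrb2 had r = 0.97, Rsph1 0.94 and Cfap126 0.94, whereas Rarres2 had 0.63 and Spag6 -0.19. Over all features 0.755% had r above 0.8 with the mean of the 11 genes. The value of Rarres2 turned on 2 mice, since without the TC mice of arrays C and M it was 0.87, inside the range of 0.78 to 0.98 of the other genes but Spag6, and in the 11 intact mice it was 0.92. Spag6 had 0.18 and 0.04 in the same sets of mice. In the 11 lesioned mice Rarres2 had 0.45 and Spag6 -0.29, against 0.81 to 0.95 in the other genes. By this description Spag6 stood apart in each set of mice. Rarres2 did so over the 22 mice and in the 11 lesioned ones, while the remaining genes went together.

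Among features with a symbol outside all gene lists, the 10 with the closest pattern were Tctex1d4 (r = 0.98), 1110017D15Rik (0.97), Spaca9 (0.97), Smim5, Mlf1, Lrrc46, Maats1, Efhb, 1700013F07Rik and Meig1 (0.95). Their measure of likeness is Pearson's r of deviations from the group means over 22 mice. Their fitted log2 ratios were 0.48 to 1.70 for WTC minus WT and -1.41 to -0.49 for TC minus WTC.

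Other genes of the motile cilium, from a fixed list, went the same way with smaller ratios. Of 57 measured, 53 had higher fitted levels in WTC than in WT mice, with a median log2 ratio of 0.72, and 0 passed in the planned limma fit. In the separate-channel limma fit 24 rose and 0 fell, where 14.2% of all features rose and 12.2% fell. Dnaic2, which encodes an intermediate chain of the outer dynein arm, had a WTC minus WT log2 ratio of 1.34 ± 0.22 (SE, limma adjusted p = 0.066), and for TC minus WTC the ratio was -0.92 ± 0.19 (SE, limma adjusted p = 0.13). In WTC minus WT its groups did not overlap, with every WTC mouse higher, as held for 9.07% of all features. In TC minus WTC every TC mouse was lower, as held for 0.239%. Ropn1l, of the radial spoke, had a WTC minus WT log2 ratio of 1.17 ± 0.22 and Mns1, an axonemal protein, one of 1.37 ± 0.34. In TC minus WTC the list's median was -0.57, with 4 of 57 ratios positive. Over the 22 mice the mean deviation of the list had r = 0.98 with that of the ependymal genes (without Spag6).

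Regulators of multiciliated cells had lower ratios, with a median WTC minus WT log2 ratio of 0.33 over 11 measured genes, of which 9 were positive. Of these 11, 0 passed in the planned limma fit and 5 rose in the separate-channel limma fit, where 14.2% of all features rose. Ccdc78, which acts in the making of centrioles, had 0.68 ± 0.21 (SE) and the transcription factor gene Myb 0.97 ± 0.32 (SE). Genes of intraflagellar transport and the BBSome, which both motile and primary cilia use, did not share the pattern. Over 31 measured genes their median WTC minus WT log2 ratio was -0.06, with 11 positive, and in the separate-channel limma fit 0 rose and 9 fell, where 12.2% of all features fell. Kif17, a kinesin motor, had -0.38 ± 0.11 (SE) and Bbs2 -0.35 ± 0.11 (SE). The list's deviations had r = 0.28 with those of the ependymal genes over the 22 mice.

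Other ependymal genes had a median WTC minus WT log2 ratio of 1.43, positive in 8 of 8, with 0 passing in the planned limma fit. In the separate-channel limma fit 5 rose, against 14.2% of all features. Hdc, the histidine decarboxylase gene, had 1.54 ± 0.46 (SE) and Mia 2.29 ± 0.70 (SE), and in TC minus WTC they had -1.31 ± 0.40 and -1.68 ± 0.62 (SE). Choroid plexus genes had higher ratios and larger errors. Their median was 1.95 for WTC minus WT, positive in 19 of 19, yet 0 passed in either fit, and Ttr had 2.71 ± 1.82 (SE, limma adjusted p = 0.44). In TC minus WTC their median was -1.79 and in T minus WT it was -0.83, negative in 19 of 19, where the ependymal motile cilia genes had 0.05. Over the 22 mice the deviations of the choroid plexus list had r = 0.73 with those of the ependymal genes, and those of the other ependymal genes had r = 0.96.

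**Figure D4:**
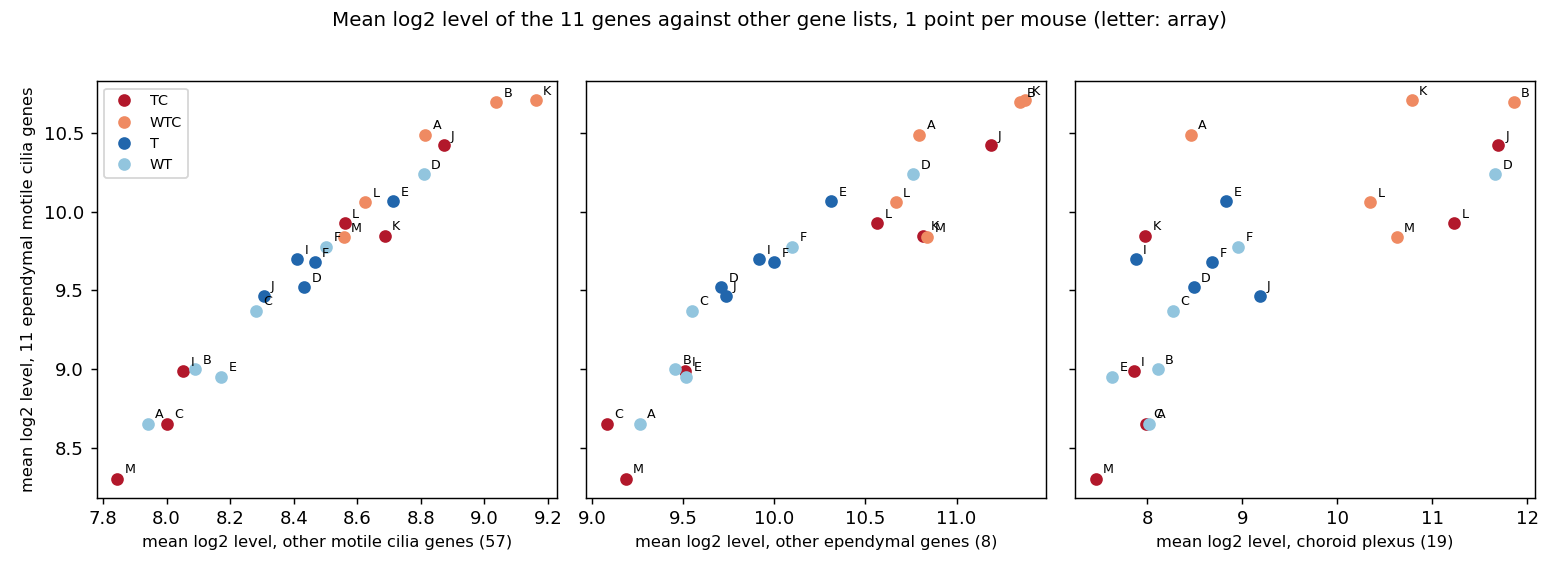
Mean log2 level of the 11 ependymal motile cilia genes (y axis) against that of 57 other motile cilia genes, 8 other ependymal genes and 19 choroid plexus genes (x axes, left to right), 1 point per mouse with the letter of its array. The points lie along 1 line in the left and middle panels. In the right panel the WTC mouse of array A (10.49 against 8.46) and the TC mouse of array K (9.85 against 7.98) have high levels of the 11 genes at low choroid plexus levels.

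Lists of other tissues were less like the genes. Striatal genes had a median log2 ratio of -0.80 for WTC minus WT and of -1.42 for TC minus WTC. For TC minus T it was -1.26 and for T minus WT -1.11, and in each of these 4 comparisons 0 of 15 ratios were positive. Their deviations had r = 0.06 with those of the ependymal genes (without Spag6). Reactive astrocyte genes had medians of 2.28 for WTC minus WT and -0.04 for TC minus WTC. Timp1 rose by 3.61 ± 0.42 (SE, limma adjusted p = 0.046) after the lesion in wild types. Meningeal fibroblast genes had medians of 0.33 and 0.07, genes of subventricular progenitors and neuroblasts -0.24 and -0.70, and excitatory neuron genes of the cortex -0.21 and -0.33. The subventricular list was negative in TC minus WTC for 7 of 7 genes, of which 0 passed in the planned limma fit, and its deviations had r = 0.45 with those of the ependymal genes, or 0.60 without the TC mice of arrays C and M. For cortical excitatory neuron genes r was 0.18, or 0.61 without these 2 mice. Over all 22 mice it was -0.24 for meningeal fibroblast genes, -0.13 for reactive astrocyte genes and 0.04 for spermatid genes. Spermatid genes were listed because several motile cilia genes are also used in the sperm tail. Of 11 on the array 5 passed the filter, and among these Prm1, a protamine, had a log2 level of 10.07 to 13.31 in TC mice and of 5.65 to 7.97 in WTC mice, with a TC minus WTC log2 ratio of 5.67 ± 0.98 (SE, limma adjusted p = 0.13), opposite in sign to the 10 genes that were lower there. The intact groups were not uniform in Prm1. It was at 6.47 in the T mouse of array F, against 8.75 to 11.88 in the other T mice, and at 10.28 and 10.03 in the WT mice of arrays A and D, against 5.80 to 6.40 in the other WT mice. In the 11 ependymal genes the WT mouse of array A was the lowest of its group in 9 and that of array D the highest in 10. The T mouse of array F was the lowest in 2 and the highest in 0. The other 4 spermatid genes had TC minus WTC log2 ratios of 0.04 to 0.37.

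The authors' deposited table gives log2 ratios for the same 15 probes in 3 comparisons. In the authors' deposited table WTC minus WT was 1.51 for Foxj1, 1.63 for Cfap126 and 1.48 for Rarres2, and the Spag6 probes were at -1.18 and -1.08. For TC minus WTC the authors' deposited table has -1.31 for Foxj1 with an adjusted p of 0.016, -1.84 for Dynlrb2 with 0.036 and -1.43 for the brighter Cfap126 probe with 0.042, while the other 12 probes of these genes have an adjusted p above 0.05. Ccdc153 stands at -2.56 with 0.065 there, in the authors' deposited table. The authors' deposited table has 6622 of 59305 rows under an adjusted p of 0.05 for TC minus WTC and 1169 for TC minus T, with none of the 15 probes among the rows called for TC minus T.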

How the data were processed

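The authors deposited the output of Agilent Feature Extraction 10.7.3.1 for each array, per the file headers. The red and green values of spots and of their background are intensity values on a linear scale (median pixel brightness), not background-subtracted per the file headers, and the deposited LogRatio, a log10 ratio of red over green per the file headers, served as an alternative. A further table from the authors, as deposited, holds log2 ratios, whose log base is taken from limma's usual output, and adjusted p-values for 3 comparisons. Its tool is limma per the file header, and its WTC minus WT p-value column, with 766 values above 1, was not used.

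In limma 3.58.1 (R 4.3.3), background was corrected with normexp (offset 50) and each array's ratios were normalized by loess. Control and outlier spots had weight 0, and the 154 probes that thereby lack a value on some array were fitted on the others. A probe was kept if well above background in 5 or more of the 22 channels, and the brightest probe stood for a gene. Of the probes, 26762 (48.1%) matched 1 symbol in the RefSeq gene table (GRCm38.p6). Log2 ratios were fitted with T, WTC and TC against WT plus a dye term (7 residual degrees of freedom, two-sided tests, Benjamini-Hochberg over 26082 features). Log2 levels come from the loess ratios and Aquantile normalization between arrays, with the probe's dye effect removed. The separate-channel fit had an intraspot correlation of 0.32. The fit was tested on simulated ratios.

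Members and gene lists were chosen with earlier results of these data known, and they are described by counts and medians. The plan counted 10 members and the mapping gave 11. Named beside the members were up to 4 genes with the smallest p of a list in the comparison described, Gfap, Timp1, Ttr and Prm1 always, and the 10 features of closest pattern. Single mice were named after their values were seen. The series' design text speaks of 4 hybridisations of a sample, while each mouse is on 1 array here. Alternatives changed background correction, normalization, filter, probe choice, dye term, slide, labels, fit and arrays.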

Additional observations from a re-analysis of the deposited data

Results flagged for a closer look

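Rarres2, the chemerin gene, had a log2 level of 11.3 (11.316) in the TC mouse of array I, while the other TC mice had 12.19 to 12.66. This mouse lay apart from its group by Dixon's criterion at the 95% level. The criterion was applied to 44 combinations of a gene and a group, 1 was marked, and chance marks about 1 in 20. The T mouse on the same array had 11.90. In the same TC mouse the reactive astrocyte mean was 10.26, the lowest of the TC mice, cortical excitatory neuron genes had a mean of 8.74, while the remaining TC mice ranged from 10.41 to 11.54 and all WTC, T and WT mice had 9.94 or more, and the subventricular mean was 7.17, the lowest of all 22 mice. Timp1 was at 9.76, against 11.46 to 13.68 in the other TC mice. Its title and its channel label give different groups.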

How the results depend on the processing

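In WTC minus WT, where 0 of the 11 genes passed in the planned fit, 7 passed in the separate-channel fit, 7 with single channels and array as a random block, 7 with single channels when only the TC mouse of array I was left out, 8 with single channels without the TC mice of arrays C and M, and 8 on slide 1 alone. Without arrays I, J and K 1 passed, and leaving out each array gave 0 to 2. Over all features the planned fit called 6, against 6850 with separate channels, 2160 on slide 1 alone, 1764 when arrays I, J and K were left out, 1437 without array I, 1583 without array K, and 0 with median centring, which moved the median feature to -0.10. In the other 4 comparisons, including the difference of lesion effects, no gene of the 11 passed under any alternative run. Median log2 ratios of the 11 genes ranged from 1.28 to 1.86 for WTC minus WT, -1.56 to -0.68 for TC minus WTC, -1.46 to -0.75 for the difference of lesion effects, -0.14 to 0.55 for TC minus T and -0.50 to 0.35 for T minus WT.

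Signs turned for genes that did not pass. Foxj1 in TC minus T was -0.13 with groups from the channel labels. Leaving out each array moved Spag6 in TC minus WTC between -0.28 (array M) and 0.28, Tmem212 in TC minus T between -1.13 and 0.47 and Ccdc153 in TC minus T between -1.73 and 0.010. Spag6 in TC minus WTC was -0.17 with single channels without the TC mice of arrays C and M, -0.37 without arrays C and M and -0.34 on slide 1 alone, and in WTC minus WT it was 0.10 on slide 1 alone. Tmem212 in TC minus T was above 0 without array C, E or I, 0.59 without arrays C and M and 0.25 on slide 2 alone. Ccdc153 in TC minus T was above 0 without array C and 0.21 without arrays C and M. The causes were not tested. Single-channel fits with array as a block, fits without single TC mice or arrays C and M, and fits within slides were chosen after seeing the data. Slide 2 holds no WT mouse and gave no WTC minus WT value. The planned fit compares the 2 mice of each array and so uses that pairing. For replicate numbers no paired analysis was possible because they mark arrays, not mice shared between groups. Ak7, near background, and the number of arrays limit the precision.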
